A study of Mus musculus with 2 samples.

Results

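The genes described here encode the proteins of the cytosolic ribosome. They were taken by symbol, as every gene whose name starts with Rpl or Rps followed by a digit, plus Rpsa, Rplp0, Rplp1 and Rplp2, leaving out names that contain -ps and the ribosomal S6 kinases. This gave 86 of the 32285 genes in the files, 34 named for the small subunit (Rps and Rpsa) and 52 for the large subunit (Rpl and Rplp). They lie on 19 chromosomes and were used as 1 family. Symbol matching also brought in Rps19bp1, which binds a ribosomal protein and is not one, and several low-abundance paralogues. Rack1, a ribosomal protein under another name, stayed outside and is given separately.

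The 2 libraries come from Hepa1-6 tumours, grown in mice from a hepatoma cell line, and were made by droplet single-cell RNA sequencing. One library is the control, for which the labels name no agent, and the other follows CD147-LYTACs at 40 mg/kg, given in 4 doses with 3 days between doses. LYTACs are chimaeric molecules that carry a surface protein to the lysosome, here CD147 (basigin), a partner of lactate transporters. Tumours were taken on day 12, and cells without and with the leukocyte protein CD45 were sorted apart and recombined at a fixed ratio before loading. The labels leave the route open (intraperitoneal or intravenous) and do not say how many mice or tumours each library holds. With 1 library per group no difference between the groups has a replicate check, and every interval below covers counting error only.

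The ribosome translates messenger RNA into protein, and each ribosome carries one copy of nearly every ribosomal protein, so cells make these proteins in matched amounts. Their messenger RNAs are among the most abundant in growing cells. Most start with a run of pyrimidine bases at the 5′ end, the terminal oligopyrimidine tract, through which growth signalling by mTORC1 and the RNA-binding protein LARP1 sets their translation and stability. Tumour cells and activated lymphocytes are known for high ribosome production, and mature neutrophils for little.

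The tract can be read in the genome sequence at the start of many members. Windows of 30 bases, from 10 bases before to 20 bases from the RefSeq start (GRCm38.p6), were searched on the gene's own strand for a C followed by at least 6 further C or T bases. Of the 66 members with a RefSeq promoter entry, 30 (45.5%) held such a run. It occurred in 15.6% of the 27025 genes in that table and in 10.1% of the 69 mitochondrial ribosomal protein genes that could be matched. The windows below belong to Rpl27a, shown for its long run, and to members on which later results turn, with the run in capitals where it was found:
Rpl27a, chr7:109519185-109519214, + strand: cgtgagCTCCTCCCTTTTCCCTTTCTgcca
Rpl15, chr14:18270967-18270996, - strand: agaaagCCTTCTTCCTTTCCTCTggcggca
Rpl7a, chr2:26910797-26910826, + strand: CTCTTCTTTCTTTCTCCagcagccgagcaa
Rps18, chr17:33955646-33955675, - strand: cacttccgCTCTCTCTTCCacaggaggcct
Rps6, chr4:86857348-86857377, - strand: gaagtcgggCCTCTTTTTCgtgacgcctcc
Rplp2, chr7:141447641-141447670, + strand: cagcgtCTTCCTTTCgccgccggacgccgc
Rps27, chr3:90213629-90213658, - strand: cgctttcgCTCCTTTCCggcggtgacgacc
Rps9, chr7:3704031-3704060, + strand: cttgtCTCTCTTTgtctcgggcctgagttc
Rplp0, chr5:115559457-115559486, + strand: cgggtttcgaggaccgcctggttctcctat
Rpl10, chrX:74270806-74270835, + strand: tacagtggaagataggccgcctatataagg
The run was 20 bases long in Rpl27a and 17 in each of Rpl15 and Rpl7a. Rplp0 and Rpl10 had no such letters in this window, which says nothing of the start that these cells use.

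The control library held 8150 barcodes with 143495332 UMIs (unique molecular identifiers, one per captured RNA molecule) and the treated library 9219 with 149812326. After filtering and removal of likely doublets, 6689 and 7641 cells remained. Cells were assigned to types by the number of lineage markers detected. In the control and treated library 8.39% and 10.7% of cells met or came close to the gates of more than 1 lineage and were set aside, and 21.5% and 20.2% passed no gate. The leukocyte gene Ptprc (CD45), which no gate used, was scarce in hepatoma-like cells, at 2.19 and 2.33 CPM (counts per 1000000 UMIs of the cell type), and between 519 and 4145 CPM in the leukocyte types below. Hepatoma-like cells carried their own gate markers Krt8 at 1724 and 1782 CPM and Alb at 1228 and 1252 CPM. The libraries shared 24 barcodes. The main results rest on 7 types, none with fewer than 50 cells in either library.

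Ribosomal protein transcripts made up 20.7% of all control UMIs and 20.9% of all treated UMIs, and the share depended strongly on cell type. In hepatoma-like cells it was 23.5% in the control library (1285 cells) and 24.0% in the treated library (1485 cells). CD8 T-like cells came next, with 16.8% (2349 cells) and 19.2% (1747 cells). CD4 T-like cells had 14.6% and 17.7% (224 and 149 cells), conventional dendritic-like cells 14.6% and 14.6% (84 and 62 cells), and NK-like cells 13.6% and 16.3% (67 and 69 cells). Monocyte or macrophage-like cells were lower, at 9.07% and 9.53% (98 and 277 cells). Neutrophil-like cells stood far below all others, at 2.12% and 1.83% (134 and 1101 cells).

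This order held in both libraries for hepatoma-like, CD8 T-like, monocyte or macrophage-like and neutrophil-like cells. The 3 middle types changed places: dendritic-like and CD4 T-like cells both stood at 14.6% in the control library, with NK-like cells below them, and dendritic-like cells were the lowest of the 3 in the treated library. In types with fewer cells, regulatory T-like cells had 11.9% and 16.3% (64 and 40 cells), B-like cells 14.1% and 12.7%, mast or basophil-like cells 14.0% and 12.1%, plasmacytoid dendritic-like cells 10.2% and 10.7%, and fibroblast or mural-like cells 8.35% and 12.5% (20 and 38 cells).

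**Figure D1:**
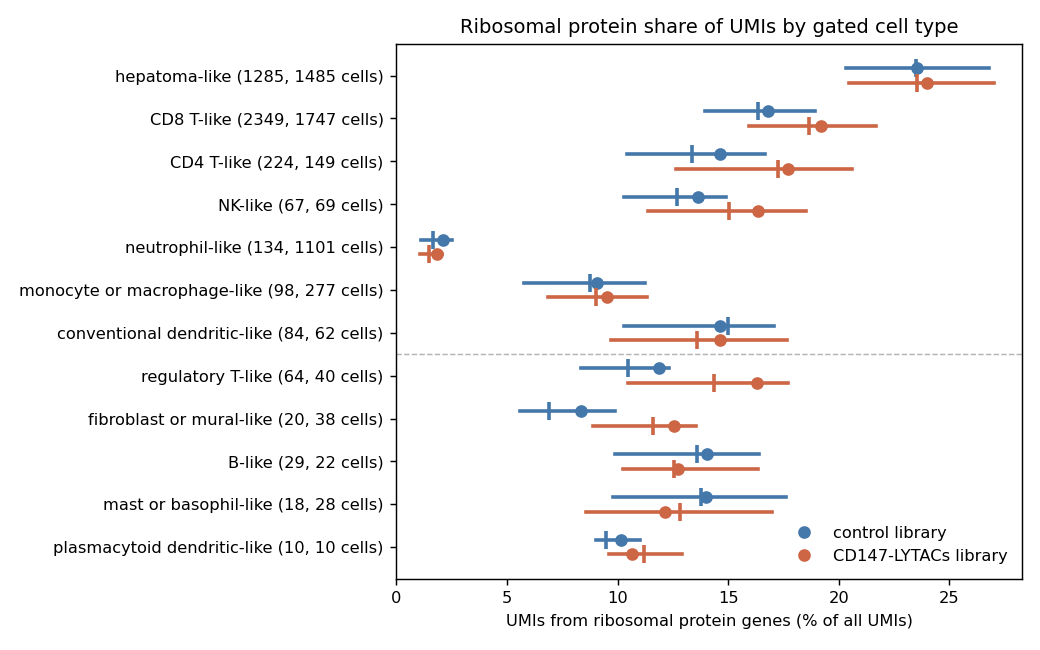
Share of UMIs from the 86 ribosomal protein genes in gated cell types, as a percentage of all UMIs. Dots give the share of the summed UMIs of each library, vertical ticks the median over cells and bars the 25th to 75th percentile over cells (not an error of the library). Neutrophil-like cells sit at 2.12% and 1.83%, hepatoma-like cells at 23.5% and 24.0%, and types below the dashed line have fewer than 50 cells in at least 1 library.

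Neutrophils are short-lived phagocytes that finish most of their protein synthesis in the bone marrow. The median neutrophil-like cell held 47 ribosomal protein UMIs in the control library and 41 in the treated library, of 2854 and 2836 UMIs in all. The cells carried the alarmins S100a8 at 20891 and 13752 CPM and S100a9 at 29677 and 21936 CPM, both markers of their own gate. In 97.8% and 98.5% of these cells the family made up less than 5% of UMIs, against 0.156% and 0.0673% of hepatoma-like cells. The family share of hepatoma-like cells was 11.1 and 13.1 times that of neutrophil-like cells, and the share of monocyte or macrophage-like cells, the other myeloid phagocytes, was 4.27 and 5.22 times as high.

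The reduction took in every member abundant enough to be tested. All 81 members with enough UMIs were at least 1.5-fold lower in neutrophil-like than in hepatoma-like cells in each library, as were 55% (control) and 57.2% (treated) of all genes tested. None of the 81 was higher, as 30.2% and 30.1% of all genes tested were. A member could be among the 81 through its hepatoma-like level alone, which tilts these counts downwards. Rpl3l, too scarce to be among them, was higher in neutrophil-like cells, at log2 4.88 and 4.77 from 7 and 26 UMIs. The median log2 difference of the 81 was -3.54 in the control and -3.86 in the treated library, against -1.03 and -1.17 over all genes tested. Rps4x, a small-subunit protein encoded on the X chromosome, had the greatest reduction among these: 147.5 against 3459 CPM in the control library and 119.2 against 3727 in the treated library. Rps27, a zinc-finger protein of the small subunit, was among the least reduced, with 607.6 against 1671 CPM and 565.7 against 1638 CPM (log2 -1.46 and -1.53). Rps9, a small-subunit protein that acts early in assembly, was at 722.1 against 3393 CPM and 840.1 against 3466 CPM. Members with the pyrimidine run in their window had a median log2 difference of -3.69 and -3.86 (29 members), and those without it -3.42 and -3.68 (34 members). The group without the run was not limited to the 81 members above. It holds the scarcer Rps27rt, at log2 -1.19 in the control library.

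Other parts of the translation apparatus were low in neutrophil-like cells as well. The median log2 difference from hepatoma-like cells was -2.95 and -3.07 for 5 elongation factors, -2.84 and -2.70 for 29 initiation factors, and -3.10 and -3.92 for the mitochondrial ribosomal proteins tested (41 and 44). Genes for ribosome assembly had medians of -3.23 and -3.26 (28 genes). Growth signalling genes were closer to the level of hepatoma-like cells, at -1.01 and -1.48 (9 and 8 genes). These medians are tilted downwards, because a gene could pass the filter through its hepatoma-like level alone. Summed without that filter, 78 mitochondrial ribosomal protein genes gave 1013 and 878 CPM in neutrophil-like and 4858 and 5205 CPM in hepatoma-like cells. The 56 assembly genes gave 3062 and 2185 CPM against 7919 and 7209 CPM. The 6 elongation factors gave 1180 and 1057 CPM against 8086 and 8416 CPM. For the 29 initiation factors the sums were 4260 and 4955 CPM against 9673 and 9993 CPM, a smaller gap than their medians give. Growth signalling genes summed to 413.9 and 414.4 CPM against 809.2 and 822.0 CPM. RNA released from other cells reaches every droplet, and the size of that background was read from the hepatoma markers. The markers above 100 CPM in hepatoma-like cells (6 and 7) had a median of 2.16% and 1.37% of their hepatoma level in neutrophil-like cells. At that median rate hepatoma RNA would give a family share of 0.509% and 0.329%, below the 2.12% and 1.83% measured. The same markers form the hepatoma gate, and cells that met it or were 1 marker short had been set aside. The rate may therefore be too low. Single markers ranged up to 31.2% and 18.4% of their hepatoma level, and at those highest rates the share would be 7.34% and 4.41%, above the one measured. How much of the neutrophil-like level is free RNA was not tested.

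**Figure D2:**
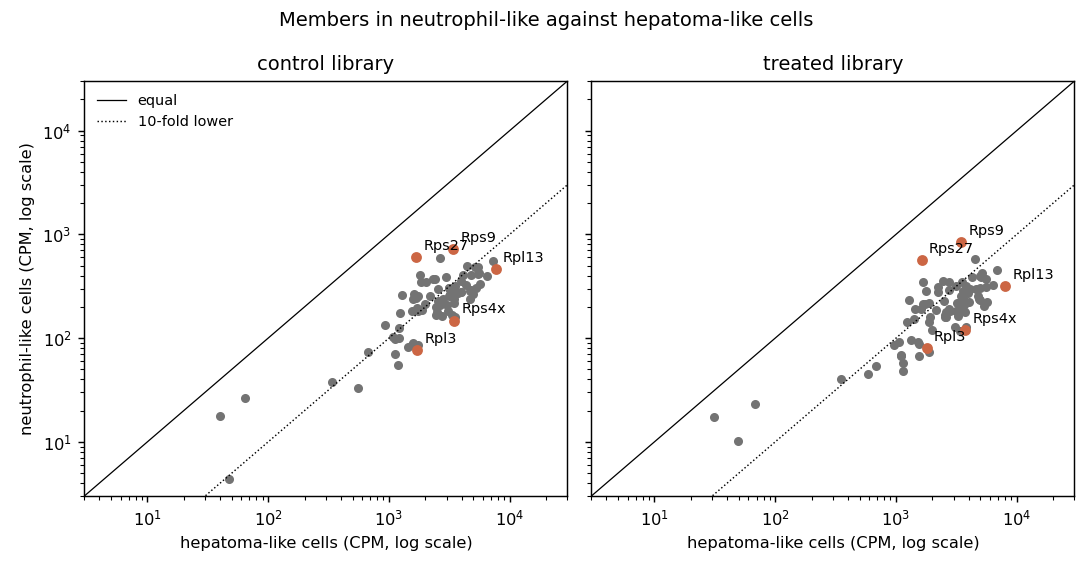
Level of each detected member in neutrophil-like cells (vertical axis) against hepatoma-like cells (horizontal axis), in CPM on log scales, with 1 panel per library. The solid line marks equal levels and the dotted line a 10-fold lower level. Rps27 and Rps9 lie nearer to the solid line than most members, at 607.6 and 722.1 CPM in the control library and 565.7 and 840.1 CPM in the treated library, and Rps4x and Rpl3 lie well below the dotted line.

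Among the 7 main types, the treated share exceeded the control share most in the T and NK types and differed little in the tumour cells. The log2 ratio of the family share, treated over control, was 0.28 in CD4 T-like cells (95% interval 0.27 to 0.28), 0.26 in NK-like cells (0.24 to 0.28) and 0.19 in CD8 T-like cells (0.19 to 0.19). Types with fewer cells went both ways. The ratio was 0.59 in fibroblast or mural-like cells (0.57 to 0.61, 20 and 38 cells), the greatest of any type, and 0.46 in regulatory T-like cells (64 and 40 cells). It was 0.07 in plasmacytoid dendritic-like cells (10 and 10 cells) and -0.21 in mast or basophil-like cells (18 and 28 cells). B-like cells, with 29 and 22 cells, were lower in the treated library (-0.14, -0.17 to -0.12). The ratio was 0.07 in monocyte or macrophage-like cells (0.06 to 0.08), 0.03 in hepatoma-like cells and 0.00 in conventional dendritic-like cells (-0.01 to 0.01). The ratio was -0.22 in neutrophil-like cells (-0.25 to -0.18). Medians over cells moved alike in the T and NK types: from 16.3% to 18.6% in CD8 T-like cells, from 13.4% to 17.3% in CD4 T-like cells and from 12.7% to 15.1% in NK-like cells. The ranges from the 25th to the 75th percentile of cells overlapped between the libraries in each of these types, with 13.9% to 18.9% against 15.9% to 21.7% in CD8 T-like cells.

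The neutrophil-like ratio did not keep its direction. With edgeR's TMM scaling it was 0.13 and with median-of-ratios scaling -0.07, and the median log2 ratio over all genes tested was itself -0.15 in these cells. When cells 1 marker short of another lineage's gate were kept, an alternative chosen after seeing the data, the ratio was -1.27, with shares of 5.71% and 2.37%. The ratios of CD8 T-like, CD4 T-like and NK-like cells stayed above 0 under every alternative that gave a value.

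The difference in the T and NK types was spread over the family. In CD8 T-like cells 75 of 81 members tested had a ratio above 0 (36.3% of all 3759 genes tested), with a median log2 ratio of 0.19 against -0.07 over all genes. In CD4 T-like cells 79 of 80 members were above 0 (42.4% of 3850 genes), with a median of 0.25 against -0.06. In NK-like cells it was 70 of 79 (47.6% of 1398 genes), with a median of 0.25 against -0.02. In hepatoma-like cells 55 of 81 members were above 0 (47.5% of 3555 genes), with a median of 0.02 against -0.01.

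Few members reached 1.5-fold, the size used to call a gene (with at least 100 UMIs, at least 50 CPM in the higher library and an interval that leaves out 0). In CD8 T-like cells 0 members were called higher (0.532% of all genes tested) and 1 lower (0.479%). In CD4 T-like cells 0 were called higher (2.1%) and 0 lower (3.14%), and in NK-like cells 0 higher (2.79%) and 0 lower (5.87%). In hepatoma-like cells the counts were 0 higher (0.0844%) and 0 lower (0.113%), and in conventional dendritic-like cells 0 higher (5.66%) and 0 lower (7.07%). With the threshold lowered to 25% higher or 20% lower, 14 of 81 members passed as higher in CD8 T-like cells (4.34% of all genes tested), 27 of 80 in CD4 T-like cells (8.08%) and 26 of 79 in NK-like cells (8.87%). As lower, 1 passed in CD8 T-like (4.52%), 0 in CD4 T-like (12.3%), 0 in NK-like (12.1%) and 22 of 78 in neutrophil-like cells (25.3%, with 0 higher beside 10.4%). In hepatoma-like cells 0 passed in either direction (0.703% higher and 0.788% lower), and so in conventional dendritic-like cells (13% and 11.9%), while in monocyte or macrophage-like cells 1 passed as higher (15.7%) and 0 as lower (19.8%).

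Among large-subunit genes, Rplp0 had the greatest ratio in CD8 and CD4 T-like cells. It encodes the base of the ribosomal stalk, the lateral arm that recruits elongation factors. Rplp0 stood at 1997 CPM in the control and 2753 CPM in the treated library in CD8 T-like cells (log2 0.46, 0.44 to 0.48). In CD4 T-like cells it went from 1911 to 2814 CPM (0.56, 0.49 to 0.62), and in NK-like cells from 1496 to 2177 CPM (0.54, 0.38 to 0.70). Its level was also higher in the treated library in hepatoma-like cells (3545 against 3983 CPM, 0.17) and dendritic-like cells (1783 against 2073 CPM, 0.22), almost equal in monocyte or macrophage-like cells (1114 and 1129 CPM), and lower in neutrophil-like cells (317.0 against 224.8 CPM).

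The stalk's other proteins did not follow Rplp0. Rplp1 and Rplp2 encode the acidic proteins that attach to it. Rplp2 had one of the smallest ratios in each of the T and NK types: 2456 and 2392 CPM in CD8 T-like cells (log2 -0.04), 2144 and 2070 CPM in CD4 T-like cells (-0.05, -0.12 to 0.02) and 2026 and 1833 CPM in NK-like cells (-0.14, -0.30 to 0.01). Rplp1 was at 3324 and 3563 CPM in CD8 T-like cells and at 3063 and 3367 CPM in CD4 T-like cells. So within one structure of the ribosome the ratios spanned from below 0 to about the top of the family.

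Rpl10, which joins the large subunit last and completes its active centre, stood at 1357 and 1842 CPM in CD8 T-like cells (log2 0.44) and at 1260 and 1823 CPM in CD4 T-like cells (0.53). Rpl15, a core large-subunit protein, was at 1353 and 1827 CPM in CD8 T-like cells (0.43). Rpl32 was at 2088 and 3056 CPM in CD4 T-like cells (0.55), and Rpl9 had the greatest ratio in NK-like cells, at 1692 and 2525 CPM (0.58, 0.43 to 0.73), followed by Rpl29 at 620.5 and 916.3 CPM (0.56, 0.31 to 0.82). At the other end Rpl37a was at 2896 and 2782 CPM in CD8 T-like cells (-0.06), Rpl23a at 1491 and 1421 CPM in NK-like cells (-0.07), and Rpl4 at 886.9 and 911.3 CPM in CD4 T-like cells (0.04).

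Of the small-subunit genes, Rps7, which works in early assembly, was at 1948 and 2822 CPM in CD4 T-like cells (log2 0.53) and at 1753 and 2580 CPM in NK-like cells (0.56). Rps18, whose start carries the run shown above, was at 2526 and 3334 CPM in CD8 T-like cells (0.40) and at 2109 and 3051 CPM in CD4 T-like cells (0.53). Rps15 was at 1579 and 1594 CPM in CD4 T-like cells (0.01) and at 1643 and 1523 CPM in NK-like cells (-0.11). Rps6, the protein that S6 kinases phosphorylate, was at 1566 and 1702 CPM in CD8 T-like cells, 1387 and 1620 CPM in CD4 T-like cells and 1318 and 1287 CPM in NK-like cells. The only called member in these 3 types was Rps27rt, a retrogene copy of Rps27, at 58.7 and 37.4 CPM in CD8 T-like cells (log2 -0.65, -0.80 to -0.50). It lies inside Osbpl10 on the opposite strand and resembles Rps27, so reads of the 2 genes may not have been told apart by the authors' counting, and the value is uncertain.

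**Figure D3:**
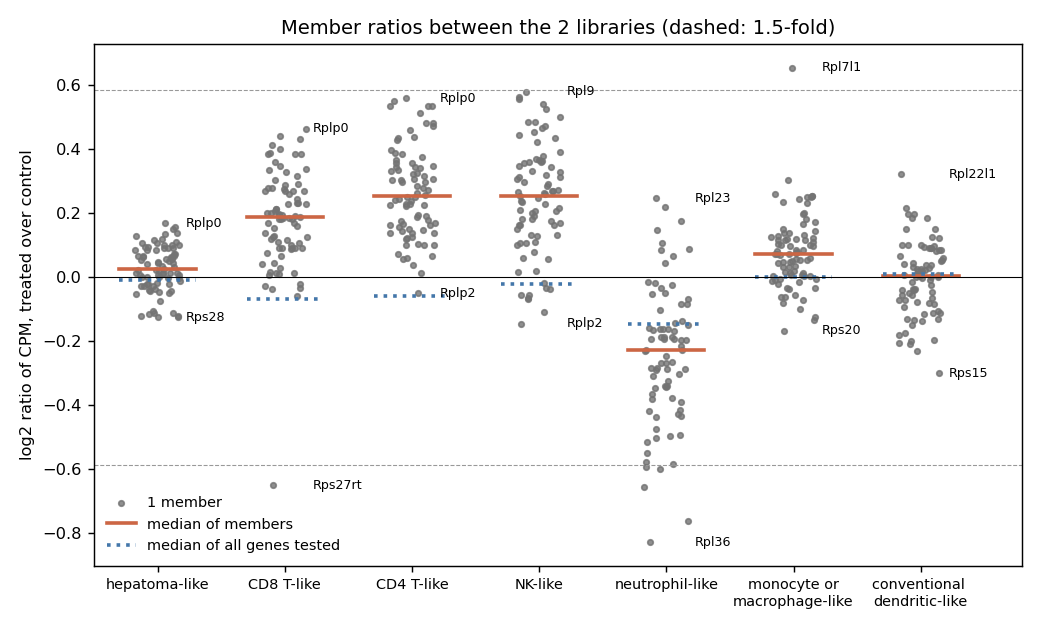
Log2 ratio of CPM, treated over control, for each member tested in 7 cell types. Each dot is 1 member, solid bars give the median of the members, dotted bars the median of all genes tested, and dashed lines mark 1.5-fold. Medians of the members are 0.19, 0.25 and 0.25 in CD8 T-like, CD4 T-like and NK-like cells and -0.23 in neutrophil-like cells, and the members with the greatest and smallest ratio are named.

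Several other measures moved with the shares of the T and NK types. Genes whose locus spans at least 100 kb can yield many reads from introns where these are counted, which was not measured here. Such genes took up 17.0% of control and 14.99% of treated UMIs in CD8 T-like cells. The values were 18.4% and 16.0% in CD4 T-like cells and 19.9% and 18.4% in NK-like cells. Malat1, a nuclear RNA, was at 9174 and 8223 CPM in CD8 T-like cells and 8917 and 7897 CPM in CD4 T-like cells, but at 12729 and 13163 CPM in NK-like cells. Across CD8 T-like cells the family share and the long-gene share correlated at Pearson's r = -0.72 in each library (2349 and 1747 cells, where both shares have the same denominator). With long genes left out of the denominator, a choice made after seeing the data, the log2 ratio was 0.16 in CD8 T-like cells, 0.23 in CD4 T-like cells and 0.23 in NK-like cells. Their part in the result was not tested beyond this.

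Transcript length moved with the ratios too. Among genes outside the family, those with an annotated transcript under 750 bases had a median log2 ratio of 0.17 in CD8 T-like cells (141 genes), 0.22 in CD4 T-like cells (136 genes) and 0.08 in NK-like cells (49 genes). Those of 750 to 1500 bases, the class that holds the members' median length of 836.5 bases, had medians of 0.17, 0.16 and 0.09. Those of 1500 bases or more had medians of -0.10, -0.10 and -0.05. The members had medians of 0.19, 0.25 and 0.25 in these types, each above the medians of both shorter classes. In hepatoma-like cells the same comparison gave 0.08 for 148 short genes, 0.11 for 522 genes of 750 to 1500 bases and -0.04 for 2756 long genes. The members' median there was 0.02, below the medians of both shorter classes.

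Within the family the relation to length ran the other way in hepatoma-like, T-like and NK-like cells. The 27 shortest members tested in CD8 T-like cells (345 to 661 bases) had a median log2 ratio of 0.10 and the 27 longest (977 to 5179 bases) a median of 0.23. In hepatoma-like cells these medians were -0.02 and 0.05. The members of middle length had the greatest median in hepatoma-like cells (0.06). They also had it in CD4 T-like cells (0.31, against 0.29 in the longest) and in NK-like cells (0.28 against 0.27). Across members, Pearson's r of the ratio with the log2 transcript length was 0.29 in hepatoma-like cells and 0.34 in CD8 T-like cells (81 members each), and with the log2 coding length 0.56 and 0.44. With transcript length r was 0.28 in CD4 T-like cells and 0.19 in NK-like cells. In conventional dendritic-like and neutrophil-like cells it was 0.16 and 0.13 across members, and -0.06 and -0.001 across genes outside the family. In monocyte or macrophage-like cells r was -0.06 with transcript length and -0.07 with coding length. Across genes outside the family, r with the log2 transcript length was -0.51 in hepatoma-like cells (3426 genes), -0.44 in CD8 T-like cells (3629 genes), -0.35 in CD4 T-like cells (3717 genes), -0.17 in NK-like cells (1299 genes) and -0.23 in monocyte or macrophage-like cells (3438 genes). Genes within a pair of libraries are not independent replicates, and these correlations are descriptions.

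**Figure D4:**
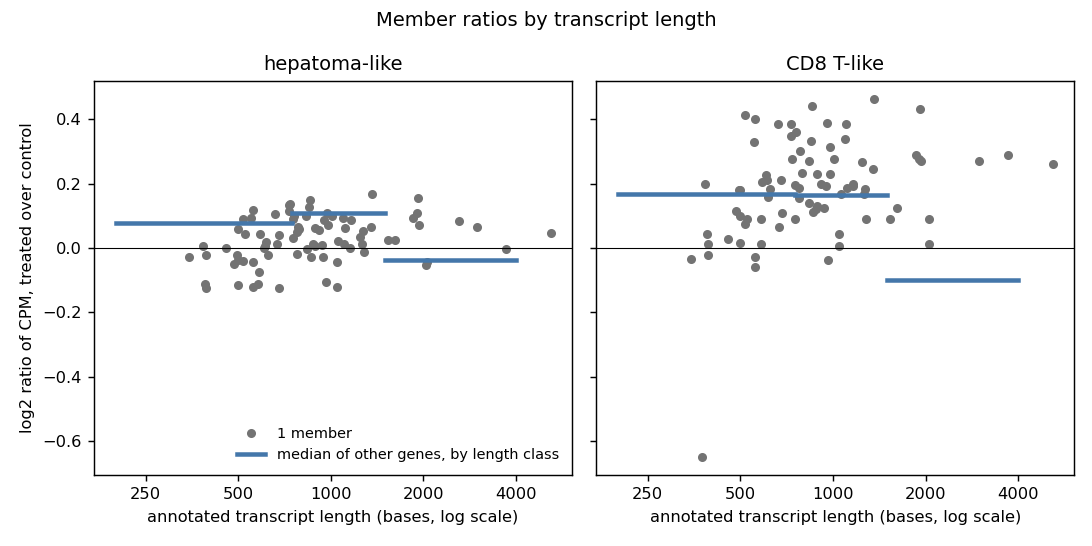
Log2 ratio of CPM, treated over control, of each member tested against its annotated transcript length in bases on a log scale, in hepatoma-like and CD8 T-like cells. Blue bars give the median of genes outside the family in 3 length classes (under 750, 750 to 1500, and 1500 bases or more, the first and last drawn short). In CD8 T-like cells the bars fall from 0.17 to -0.10 while the members' medians run from 0.10 in the shortest to 0.23 in the longest group.

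The hepatoma-like members had the narrowest range of ratios, from -0.13 to 0.17. After Rplp0, the greatest were Rpl15 at 2758 and 3073 CPM (log2 0.16) and Rpl10 at 3146 and 3490 CPM (0.15). The smallest were Rps28 at 1572 and 1441 CPM, Rps26 at 5292 and 4852 CPM and Rpl31 at 1200 and 1103 CPM, with log2 ratios of -0.13, -0.13 and -0.12. Each of these differences was beyond counting error, which is small at 65185451 control UMIs in these cells, and none has a replicate.

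In neutrophil-like cells 0 members were called higher (6.13% of all genes tested) and 5 of 78 lower (17.4%), a smaller share of the members than of all genes. The 5 were Rpl36 (211.3 and 119.2 CPM, log2 -0.83), Rps27a (587.8 and 346.5 CPM, -0.76), Rpl7a (134.3 and 85.4 CPM, -0.65), Rps15 (240.0 and 158.3 CPM, -0.60) and Rps19 (284.0 and 188.2 CPM, -0.59). Rps27a encodes a fusion of ubiquitin with a ribosomal protein. Under TMM scaling none of the 5 members was called. Only 9 of 78 members had a ratio above 0 (39% of all genes tested), led by Rpl23 (490.9 and 582.6 CPM, 0.25), Rps9 (722.1 and 840.1 CPM, 0.22) and Rpl10 (306.0 and 345.4 CPM, 0.17). The neutrophil-like cells numbered 134 in the control and 1101 in the treated library, so the control values are the less precise: Rpl36 rested on 96 control UMIs and 423 treated UMIs.

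In monocyte or macrophage-like cells 1 of 81 members was called higher (8.29% of all genes tested) and 0 lower (11.5%). It was Rpl7l1, a paralogue of Rpl7 with a role in ribosome assembly, at 32.2 and 50.7 CPM (log2 0.65, 0.05 to 1.29) from 30 and 102 UMIs. Next came Rpl9 (988.4 and 1218 CPM, 0.30) and Rps2 (1288 and 1540 CPM, 0.26), and the smallest ratios were those of Rps20 (1688 and 1504 CPM, -0.17), Rpl13a (1437 and 1310 CPM, -0.13) and Rpl3 (874.5 and 802.3 CPM, -0.12). In these cells 63 of 81 members were above 0 (50.3% of all genes tested), with a median of 0.07, while other genes with transcripts under 750 bases had a median of 0.26 (128 genes). In conventional dendritic-like cells 42 of 80 members were above 0 (51.3%), with the greatest ratios in Rpl22l1 (272.6 and 340.6 CPM, 0.32), Rplp0 (0.22) and Rps4x (1894 and 2173 CPM, 0.20) and the smallest in Rps15 (1573 and 1278 CPM, -0.30), Rpl13a (2284 and 1949 CPM, -0.23) and Rpl36a (617.8 and 535.1 CPM, -0.21).

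The treated share was also compared within subsets of the gated cells. Cycling CD8 T-like cells, with at least 5 of 13 proliferation markers, had a family share of 17.9% in the control and 19.7% in the treated library (193 and 252 cells). Non-cycling cells, with at most 1, had 16.6% and 18.9% (1776 and 1214 cells). Cells with both Pdcd1 and Havcr2, which mark chronic stimulation, had 16.9% and 18.9% (1227 and 987 cells). The treated share was the higher in each of the 3 subsets, by 0.14 to 0.19 on the log2 scale. Cycling cells were deeper, with a median of 16150 and 14352 UMIs against 6249.5 and 5899.5 in non-cycling cells.

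In hepatoma-like cells, cycling cells, with at least 8 markers, had 22.03% and 23.0% (335 and 397 cells) and cells with at most 3 had 25.2% and 24.9% (579 and 677 cells). The log2 ratio of the share, treated over control, was 0.06 in the first and -0.01 in the second subset. Macrophage-like cells with at least 2 C1q genes had 8.88% and 9.68% (77 and 170 cells), and cells with Ly6c2 or Ccr2 and no C1q 10.1% and 9.17% (15 and 57 cells). Neutrophil-like cells with at least 5 proliferation markers had 3.41% and 7.17% but numbered 3 and 6.

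Depth moved with the share in NK-like, conventional dendritic-like and CD4 T-like cells. Between the lowest and highest of 4 depth classes the median share of NK-like cells went from 9.19% to 14.4% in the control and from 10.4% to 20.6% in the treated library, and that of conventional dendritic-like cells from 9.71% to 16.8% and from 9.07% to 16.6%, with 9 to 28 cells per class. In CD4 T-like cells it went from 13.0% to 14.9% in the control and from 15.6% to 18.5% in the treated library, and the treated median was the higher in each of the 4 classes. In hepatoma-like cells it stayed between 22.6% and 25.3% in all 4 classes, and in CD8 T-like cells between 16.0% and 16.7% in the control library and between 17.9% and 19.5% in the treated library. NK-like cells had a median of 4992 UMIs in the control and 4128 UMIs in the treated library.

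The make-up of the family was compared as each member's share of the family's UMIs, which does not depend on the level of the family. Small-subunit genes supplied between 44.9% and 47.1% of it in all 7 types and both libraries. Over the 80 members with at least 100 CPM in 1 type or more, the SD of the log2 share over the 14 combinations of type and library had a median of 0.25, while the share differed between the 2 libraries of a type by a median of 0.08. The range between types was over 1 log2 unit for 18 members and under 0.5 for 17. Rps10, Rps23, Rps3a1 and Rps16 varied least, and Rps10 for instance stayed between 1.54% and 1.91% of the family.

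Of the 10 most variable members, 3 had their highest share in neutrophil-like cells. Rps27 supplied 2.86% and 3.10% of the family in neutrophil-like cells, 1.31% and 1.12% in CD8 T-like cells and 0.710% and 0.683% in hepatoma-like cells. Rps9 supplied 3.40% and 4.60% in neutrophil-like cells and 1.44% and 1.45% in hepatoma-like cells, with all other types between 1.70% and 2.30%. Rps25, which binds internal ribosome entry sites, supplied 1.22% and 1.27% in neutrophil-like cells and 0.549% and 0.534% in hepatoma-like cells. Other myeloid types were closer, with 0.980% and 1.01% in monocyte or macrophage-like and 0.950% and 0.953% in conventional dendritic-like cells.

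A further 3 were low in neutrophil-like cells. Rpl3, which helps to form the peptidyl transferase centre, supplied 0.363% and 0.435% there and between 0.727% and 1.13% elsewhere. Rps18 supplied 0.747% and 0.692% there and between 1.06% and 1.74% elsewhere. Rpsa, which is also known as a laminin receptor, supplied 0.976% and 0.988% in neutrophil-like cells, 1.12% and 1.16% in hepatoma-like cells and 2.07% and 2.165% in CD4 T-like cells.

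Another 3 had their highest or lowest share in the tumour cells. Rps26, a small-subunit protein at the exit of the messenger RNA, supplied 2.25% and 2.02% in hepatoma-like cells and between 0.725% and 1.43% in every leukocyte type. Rpl39, at the peptide exit tunnel, was the reverse, with 0.525% and 0.518% in hepatoma-like cells and between 0.779% and 1.248% elsewhere. Rps29 supplied 0.766% and 0.696% in hepatoma-like cells and 2.10% and 2.04% in monocyte or macrophage-like cells. Rps27l, a paralogue of Rps27 that p53 activates, varied most of all, with the tumour cells in the middle: 0.309% and 0.279% in conventional dendritic-like cells, 0.144% and 0.147% in hepatoma-like cells, and 0.0794% and 0.0606% in NK-like cells.

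**Figure D5:**
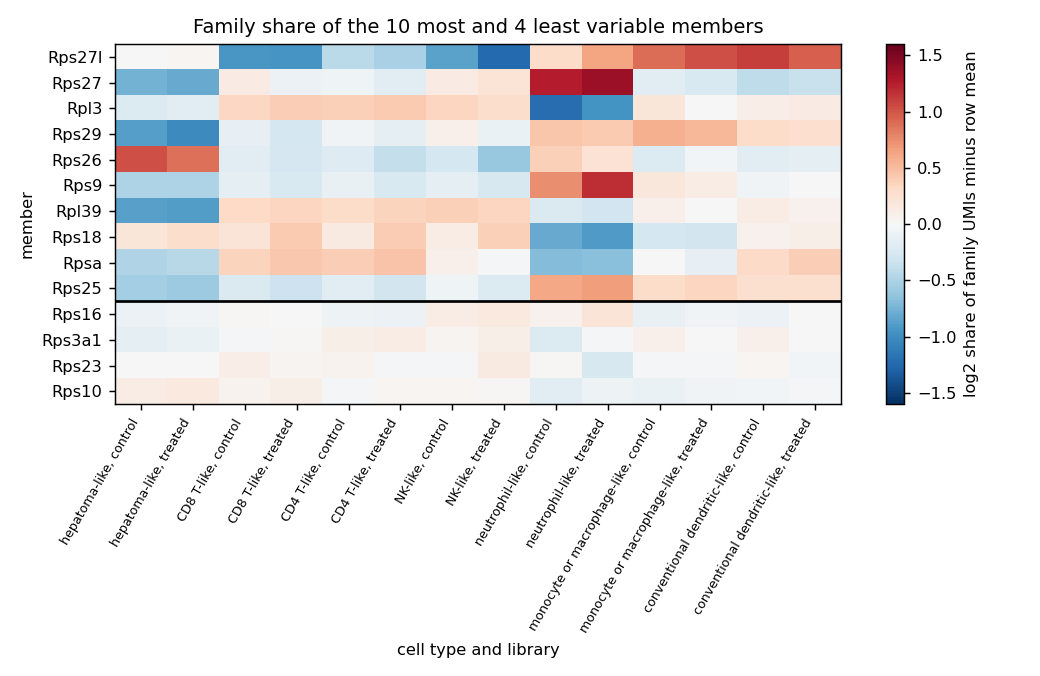
Share of the family's UMIs taken by the 10 most variable members (above the line) and the 4 least variable (below it) in 7 cell types and both libraries, as log2 share minus the mean of the row. Red is above and blue below the member's mean. The 2 libraries of a type look alike: Rps27 and Rps9 are high in neutrophil-like cells, at 2.86% and 3.10% and at 3.40% and 4.60% of the family, and Rps26 is high in hepatoma-like cells, at 2.25% and 2.02%.

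Rpl13 and Rps24 were among the 10 members with the highest mean CPM over types and libraries. Rpl13, a large-subunit protein, ranged from 7628 and 7977 CPM in hepatoma-like cells to 462.3 and 316.1 CPM in neutrophil-like cells. Rps24 stood at 5451 and 5541 CPM in hepatoma-like and at 418.3 and 309.6 CPM in neutrophil-like cells. These counts come from transcript ends and depend on how each end is captured, so they do not rank the amounts of different proteins.

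Paralogues were compared with their partners in the same cells. Rpl22l1, which can replace the RNA-binding protein Rpl22, made up 33.0% and 35.1% of the pair in hepatoma-like cells, and in conventional dendritic-like cells 20.5% and 26.9%. In neutrophil-like cells it was 25% and 39.3%, from 15 and 159 UMIs. Rpl36al supplied 36.1% and 37.6% of its pair with Rpl36a in hepatoma-like cells and 56.9% and 53.0% in neutrophil-like cells. Rps27l supplied 16.8% and 17.7% of its pair with Rps27 in hepatoma-like cells, 25.4% and 23.0% in conventional dendritic-like cells and 5.69% and 4.17% in NK-like cells.

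Rpl7l1 made up between 2.04% and 4.93% of its pair with Rpl7 in all types except neutrophil-like cells, where it was 12.8% and 12.6%. In CPM it was lowest there, at 26.4 and 23.4. Rps27rt was between 1.52% and 3.33% of its pair with Rps27, with the limit on telling the copies apart given above. The 11 members whose symbol ends in a (such as Rpl13a and Rps15a) are mostly named beside an unrelated protein of the same number and were not treated as pairs, save Rpl36a. Rps19bp1 was at 47.1 and 48.9 CPM in hepatoma-like cells and at 4.403 and 10.1 CPM in neutrophil-like cells.

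Paralogues known from testis and muscle were nearly absent. Rpl10l had 0 UMIs in every type and library, which allows at most 9.58 CPM in the type with the fewest UMIs. Rpl39l was seen only in CD8 T-like cells, at 0.966 and 2.38 CPM. Its count of 0 allows up to 7.72 and 9.58 CPM in NK-like cells and 1.58 and 2.33 CPM in CD4 T-like cells. A similar level in those types would thus have gone unseen. Rpl3l, the muscle partner of Rpl3, was at 0.522 and 0.268 CPM in hepatoma-like cells. In neutrophil-like cells Rpl3l reached 15.4 and 7.32 CPM from 7 and 26 UMIs, a log2 difference from hepatoma-like cells of 4.88 (3.47 to 6.08) and 4.77 (3.86 to 5.71). Its locus on chromosome 17 (24727820 to 24736143, GRCm38) ends 498 bases before Msrb1 on the same strand. Msrb1, a methionine sulfoxide reductase, was at 686.8 and 552.7 CPM in neutrophil-like cells and 27.9 and 31.8 CPM in hepatoma-like cells, and its part in the Rpl3l counts was not tested.

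Among 941 genes outside the family with at least 50 CPM in every type and library, those whose log2 CPM followed the log2 family share most closely over the 14 combinations were Rack1 (r = 0.997), Eef1b2 (0.988), Eef1a1 (0.986), Tmsb10 (0.982), Naca (0.979), Ptma (0.969), Eef2 (0.969), Gm10076 (0.968), Hsp90ab1 (0.965) and Psma2 (0.965). Rack1 is a scaffold on the small subunit, and Eef1b2, Eef1a1 and Eef2 are elongation factors. The annotation lists Gm10076 as a long non-coding RNA of 384 bases. Of the 941 genes, 6.80% had r above 0.9, and neutrophil-like cells, at the far low end, weigh heavily in each value. Rack1 stood at 2377 and 2443 CPM in hepatoma-like cells, 1634 and 1866 CPM in CD8 T-like cells and 140.9 and 104.5 CPM in neutrophil-like cells.

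Treated against control, other genes of the translation pathway gave 0 calls in CD8 T-like cells and some in other types. In CD8 T-like cells 0 of 6 elongation factors, 0 of 29 initiation factors, 0 of 27 mitochondrial ribosomal proteins, 0 of 18 ribosome assembly genes, 0 of 9 RNA polymerase I genes and 0 of 6 growth signalling genes were called in either direction. Their median log2 ratios were 0.18, 0.06, 0.17, 0.03, 0.19 and -0.04, beside 0.19 for the ribosomal proteins. The greatest ratio among tested elongation factors was that of Eif5a (244.5 and 304.3 CPM, 0.32) and among initiation factors that of Eif3i (115.3 and 158.0 CPM, 0.45), and Rheb, an activator of mTORC1, was at 67.3 and 82.0 CPM (0.29). In CD4 T-like cells 4 of 23 mitochondrial ribosomal proteins were called higher (2.1% of all genes tested) and 0 lower (3.14%), with a median of 0.34, led by Mrpl34 (39.9 and 62.9 CPM, 0.65) and Mrpl54 (0.62). In monocyte or macrophage-like cells 3 of 16 were called higher (8.29%) and 0 lower (11.5%), with a median of 0.38.

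The assembly factor Cmss1 had the smallest ratio among the tested genes of its list in hepatoma-like, CD8 T-like and CD4 T-like cells, at 1974 and 1182 CPM (log2 -0.74), 2878 and 1991 CPM (-0.53) and 2916 and 2028 CPM (-0.52). Its locus spans 304.9 kb and contains Filip1l on the other strand, and how many of these UMIs come from introns was not tested. Npm1, a nucleolar assembly factor whose transcript also carries a terminal tract, was at 936.3 and 1004 CPM in CD4 T-like cells (0.10) and at 762.1 and 858.8 CPM in NK-like cells (0.17). Tpt1 and Gas5 are known for such tracts outside the ribosome. Tpt1 was at 5606 and 7018 CPM in CD4 T-like cells (0.32), and Gas5 at 301.2 and 462.9 CPM in NK-like cells (0.62). Gas5 was the only one of 7 tested in NK-like cells to be called (2.79% of all genes tested were called higher). The list that holds Npm1, Tpt1 and Gas5 had a median log2 ratio of 0.08 in CD4 T-like cells (9 genes tested) and 0.12 in NK-like cells. The members' median was 0.25 in each.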

How the data were processed

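The deposited files hold whole-number UMI counts per gene and barcode, 1 matrix per library. Alignment used Cell Ranger 3.0.2 and mm10 per the submitters' processing notes, while the file headers name 7.1.0; no source used here names the annotation release. Barcodes with at least 500 UMIs, 300 genes and at most 15% mitochondrial UMIs were kept (7091 control, 8176 treated), and the highest doublet scores (scanpy 1.11.5), 0.8% per 1000 barcodes, were removed (402 and 535). The automatic threshold marked 1 and 136. Cells were typed by the number of markers detected, for example 5 of 14 for hepatoma-like and 4 of 9 for neutrophil-like cells, leaving out cells that met, or were 1 marker short of, another lineage's gate. UMIs were summed per type and library, and CPM, shares and log2 ratios were computed from the sums. Intervals are 95% exact (Clopper-Pearson for shares, Poisson for counts, conditional binomial for ratios) and cover counting error only. edgeR 4.0.16 served for TMM factors alone; no test between groups was possible with 1 library each. The floor for a count of 0 is 3 counts. Lengths and loci are from GENCODE (GRCm38), matched for 99.8% of genes.

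Genes were named by rule: per type the 3 greatest and 3 smallest member ratios, every member past 1.5-fold, the 10 most variable family shares, the 10 most abundant members, all paralogues, Rplp0, Rplp1, Rplp2, Rpsa, Rps6 and Rps27a, the 10 most similar other genes, and extremes of the pathway lists. Further values of these genes in other types, and Msrb1, Filip1l and Osbpl10, were added after seeing the data. The members, lists and gates were chosen with earlier results of these data known. Some genes that the rule names, and 1 subset of CD8 T-like cells, are not reported here. The calculations were tested on simulated data.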

Additional observations from a re-analysis of the deposited data

Results flagged for a closer look

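The family share moved in opposite directions between cell types, each beyond its counting interval under the scaling used. The log2 ratio, treated over control, was -0.22 in neutrophil-like cells, and 0.026 in hepatoma-like, 0.19 in CD8 T-like, 0.28 in CD4 T-like, 0.26 in NK-like and 0.073 in monocyte or macrophage-like cells. The neutrophil-like ratio did not keep its direction: it was 0.13 with TMM scaling. The difference was not tested, since each group is 1 library.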

How the results depend on the processing

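No paired analysis was possible because each group is 1 library. Over all alternatives the log2 ratio of the family share ranged from 0.15 to 0.26 in CD8 T-like, 0.23 to 0.33 in CD4 T-like, 0.23 to 0.30 in NK-like, -0.10 to 0.06 in hepatoma-like, 0.03 to 0.25 in monocyte or macrophage-like, -0.04 to 0.06 in conventional dendritic-like and -1.27 to 0.13 in neutrophil-like cells. NK-like and conventional dendritic-like cells fell under 50 cells with 1 more marker per gate or thinned gates and gave no value there. Neutrophil-like cells had medians of 2854 and 2836 UMIs per cell. The causes of the shifts below were not tested.

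The direction turned under 2 settings, written here as log2 ratios: TMM scaling in neutrophil-like cells (0.13) and cells of 2000 to 20000 UMIs in hepatoma-like cells (-0.10).
With TMM the others were 0.057 (hepatoma-like), 0.22 (CD8), 0.29 (CD4), 0.30 (NK), 0.12 (monocyte or macrophage) and -0.037 (dendritic), with 3 NK members higher, and 1 neutrophil member higher and 0 lower.
With median-of-ratios scaling they were 0.036 (hepatoma-like), 0.26 (CD8), 0.33 (CD4), 0.28 (NK) and -0.070 (neutrophil), with 5 CD4 and 1 NK members higher, 2 neutrophil and 0 CD8 members lower.
At 2000 to 20000 UMIs they were 0.20 (CD8), -0.35 (neutrophil) and 0.032 (monocyte or macrophage), with 19 neutrophil members lower.
Mitochondrial limits of 10% gave 0.047 (monocyte or macrophage), and of 25% gave 0.025 (hepatoma-like), 0.26 (CD4) and 0.12 (monocyte or macrophage), with 2 neutrophil members lower.
Without doublet removal the ratios were 0.024 (hepatoma-like), 0.19 (CD8), 0.25 (CD4) and -0.13 (neutrophil), with 2 neutrophil members lower.
As means over cells they were 0.0072 (hepatoma-like), 0.18 (CD8), 0.29 (CD4), 0.11 (monocyte or macrophage) and 0.030 (dendritic), with 1 NK member higher, 9 neutrophil members lower and 0 monocyte or macrophage members higher.
Without mitochondrial genes in the denominator the monocyte or macrophage value was 0.056.
Without the 10 most abundant other genes the values were 0.016 (hepatoma-like), 0.18 (CD8), 0.27 (CD4), -0.15 (neutrophil) and -0.025 (dendritic), with 3 neutrophil members lower.
Thinned gates gave 0.035 (hepatoma-like), 0.15 (CD8), 0.31 (CD4), -0.28 (neutrophil) and 0.25 (monocyte or macrophage), with 0 CD8 and 8 neutrophil members lower, 3 CD4 and 0 monocyte or macrophage members higher.
With 1 more marker per gate they were 0.030 (hepatoma-like), 0.19 (CD8), 0.25 (CD4) and 0.13 (monocyte or macrophage), with 8 neutrophil members lower and 0 monocyte or macrophage members higher.
A minimum of 10 UMIs gave 1 hepatoma-like member lower and 1 CD8 member higher, and a threshold of 25% higher or 20% lower 14 CD8, 27 CD4 and 26 NK members higher and 22 neutrophil members lower.
Of the alternatives chosen after seeing the data, keeping cells 1 marker short of another gate gave 0.019 (hepatoma-like), 0.18 (CD8), 0.27 (CD4), 0.29 (NK), -1.27 (neutrophil), 0.14 (monocyte or macrophage) and 0.057 (dendritic), with 4 NK members higher, 78 neutrophil members lower and 0 monocyte or macrophage members higher.
Leaving genes of at least 100 kb out of the denominator gave 0.011 (hepatoma-like), 0.16 (CD8), 0.23 (CD4), 0.23 (NK) and 0.042 (monocyte or macrophage).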
